A study of Rattus norvegicus with 44 samples.

Results

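Cxcl1, Cxcl2, Ccl2 and Ccl20 encode secreted chemokines, small proteins that direct leukocyte movement, and were described here as a group of stress-induced ligands. They were found by gene symbol in the platform annotation. Each had 1 probe, so the group is 4 genes and 4 probes of the 10412 named genes and 14055 probes on the array. Their intensities were followed in choroid plexus, the tissue in the brain ventricles that makes cerebrospinal fluid, and in blood from the trunk.

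The study used male Sprague-Dawley rats of the NCTR strain, 3 months old. The rats received neurotoxic doses of amphetamine (AMPH), were made hyperthermic by a warm environment (environmentally-induced hyperthermia, EIH) or received saline. Tissue was taken 3 h or 1 day later, and its stated aims included damage and protective responses of the choroid plexus and a comparison of immune responses between tissues. There were 44 single-dye arrays in 11 groups of 4. Choroid plexus groups were AMPH and EIH at 1 day, and AMPH, EIH and saline at 3 h. Blood groups were AMPH, EIH and saline at each time. No choroid plexus saline group of 1 day was analysed here. Each choroid plexus array carried RNA pooled from 3 rats, and each blood array carried RNA of 1 rat.

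Several labels conflict. In choroid plexus at 1 day, the 4 arrays taken here as EIH follow their source and treatment fields, although each title says control. By the titles, replicates 2, 3 and 4 of these pools hold rats whose blood arrays of 1 day are labelled EIH. A tag on the blood arrays names striatum, but trunk blood is what the protocol describes. In the titles, 5 rat numbers recur over 7 choroid plexus pools, and 17 blood rats also appear in a pool. Some numbers recur across treatments or times. AMPH 3 h replicate 2 shares a number with EIH 1 day replicate 3, and EIH 3 h replicate 2 with EIH 1 day replicate 4. Saline 3 h replicate 4 shares one with AMPH 1 day replicate 2. Among the pools of 3 h those with a recurring number are AMPH replicate 2, EIH replicate 2 and saline replicate 4. The differences from saline and between AMPH and EIH in choroid plexus at 3 h are given with and without these pools. Choroid plexus saline replicate 3 of 3 h was kept in both, although it shares a rat number with blood saline replicate 1 of 1 day.

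The tissue labels were checked against marker genes fixed as lists. At 3 h the summed intensity of 8 choroid plexus epithelium markers was 192775 to 210384 on choroid plexus arrays and 4832 to 17275 on blood arrays. The sum of 4 erythroid markers was 1718 to 3431 in choroid plexus and 150699 to 166646 in blood. At 1 day AMPH pool replicate 2 stood apart from the other choroid plexus pools, with 96245 for epithelium and 17467 for erythroid markers. Array medians were 165 to 171 at 1 day (20 arrays) and 139 to 146 at 3 h (24 arrays), so a comparison of 1 day with 3 h mixes time with a difference in scaling. Differences are log2 differences ± standard error from limma, with 4 arrays a group unless stated, and a call is a Benjamini-Hochberg adjusted p under 0.05 over all genes tested in that comparison.

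Chemokines bind receptors on leukocytes and draw those cells toward the source of the signal. Inflammatory ligands are usually made at a low level at rest and are transcribed quickly after cytokine, microbial or stress signals, with the transcription factor NF-kappa-B among their best known activators, and their short-lived mRNAs are then degraded. The choroid plexus forms a barrier between blood and cerebrospinal fluid, and chemokines produced there are known to take part in leukocyte entry. Cxcl1 and Cxcl2 attract neutrophils through the receptor Cxcr2. Ccl2 attracts monocytes through Ccr2, and Ccl20 attracts lymphocytes and dendritic cells through Ccr6.

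The promoters are shown because inducible transcription of such genes is commonly discussed through short motifs near the start site. Promoter sequence was found for 3 of the 4 members, Cxcl1, Cxcl2 and Ccl20, and Ccl2 was not matched. The 150 bases before each start site follow, 5′ to 3′ on the gene's strand, from RefSeq on build GRCr8. Cxcl1 lies at chr14:17479322-17479471 on the minus strand, Cxcl2 at chr14:17467256-17467405 on the minus strand and Ccl20 at chr9:91837009-91837158 on the plus strand. Capitals mark matches to an open form of the NF-kappa-B consensus, GGG, any 5 bases and CC, on either strand.
Cxcl1: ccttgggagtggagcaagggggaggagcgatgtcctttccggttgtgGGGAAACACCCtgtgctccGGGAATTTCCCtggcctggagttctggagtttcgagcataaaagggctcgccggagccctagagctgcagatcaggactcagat
Cxcl2: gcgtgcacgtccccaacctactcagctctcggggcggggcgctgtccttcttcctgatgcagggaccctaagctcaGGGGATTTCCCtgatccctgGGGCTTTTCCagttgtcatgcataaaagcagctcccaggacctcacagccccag
Ccl20: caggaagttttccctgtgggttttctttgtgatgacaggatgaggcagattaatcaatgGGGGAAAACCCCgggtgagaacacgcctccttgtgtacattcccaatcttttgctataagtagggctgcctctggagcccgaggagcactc
Cxcl1 and Cxcl2 are neighbours on chromosome 14 with 0 protein-coding genes between them in the RefSeq annotation, while Ccl2 is on chromosome 10 and Ccl20 on chromosome 9. In Cxcl1 the match GGGAATTTCC lay at positions -84 to -75 on the plus strand and overlaps a minus-strand match. In Cxcl2 the match GGGGATTTCC lay at -74 to -65 and GGGCTTTTCC at -54 to -45. In Ccl20 overlapping matches on both strands covered -91 to -80, and a further match lay at -205 to -196, outside the stretch shown. This motif is common: 42.3% of 33469 rat promoters hold it within 250 bases and 32.1% within 150 bases. TGANTCA (the AP-1 motif, in 6.34% of promoters within 250 bases) and TATAAA (the TATA box, in 12.9%) were searched on both strands, and these letters were not in the 250-base windows of the 3 members. A match describes the sequence only.

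In choroid plexus at 3 h, all 4 ligands stood above saline after each exposure, most of all the neutrophil-attracting Cxcl1, but no member passed the adjusted threshold. Cxcl1 had intensities of 938, 3642, 532 and 130.0 in the AMPH pools, 1380.1, 2708, 318 and 392 in the EIH pools, and 41.9, 38.2 and 43.3 with 1 blank in the saline pools. Every treated pool lay above every saline pool, and the treated pools differed widely among themselves, with replicate 2 highest in each treatment. The difference from saline was 4.09 ± 0.91 after AMPH (adjusted p = 0.0714; n = 4 and 3), a 17.0-fold difference with a 95% interval of 4.45 to 64.8. After EIH it was 4.33 ± 0.91 (adjusted p = 0.0556; n = 4 and 3), 20.1-fold with an interval of 5.28 to 76.8. In these bulk samples, a change in the number of cells of a type and a change in RNA per cell cannot be told apart.

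Cxcl2, the other ligand of Cxcr2, had intensities of 280.3, 399, 322 and 49.3 in the AMPH pools, 290.3, 1237, 132 and 153 in the EIH pools, and 51.2, 16.7 and 30.0 with 1 blank in the saline pools. The EIH pools all lay above saline, while AMPH replicate 4 lay within the saline range. The difference was 2.80 ± 0.82 after AMPH (adjusted p = 0.135) and 3.31 ± 0.82 after EIH (adjusted p = 0.104; n = 4 and 3 in each). The saline intensities lay at percentiles 7.7 to 27.2 of their arrays, each held by 55 to 155 genes.

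Ccl2, the monocyte attractant, measured 671, 2287, 229 and 237 in the AMPH pools, 830.1, 1647, 343 and 386 in the EIH pools, and 170, 157, 192 and 80.5 in the saline pools. All 8 treated pools lay above the saline pools, with replicate 2 again highest in each treatment. The difference was 1.92 ± 0.64 after AMPH (adjusted p = 0.172) and 2.20 ± 0.64 after EIH (adjusted p = 0.149).

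Ccl20, the ligand of Ccr6, measured 98.3, 124, 74.4 and 43.2 in the AMPH pools, 167, 83.3, 52.6 and 48.7 in the EIH pools, and 33.3, 39.6, 40.9 and 19.7 in the saline pools. The groups did not overlap, although the lowest treated pool of each treatment lay close to the highest saline pool. The difference was 1.30 ± 0.49 after AMPH (adjusted p = 0.218) and 1.26 ± 0.49 after EIH (adjusted p = 0.274). The saline intensities lay at percentiles 9.7 to 22.8 of their arrays, each held by 53 to 113 genes.

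After AMPH, 0 of 4 members were called in limma, where 0.156% of 10263 genes were called, 4 passed an unadjusted p under 0.05 as higher (8.89% of genes) and 3 had every treated pool above every saline pool (7.13% of genes). After EIH, 0 were called (0.341% of 10261 genes), 4 passed unadjusted as higher (7.78% of genes) and 4 had every treated pool above saline (8.42% of genes). By size of the positive difference, Cxcl1, Cxcl2, Ccl2 and Ccl20 ranked 4, 16, 58 and 206 after AMPH and 3, 7, 24 and 148 after EIH. The median over the members was 2.36 after AMPH and 2.75 after EIH, beside 0.03 and 0.01 over all genes tested. The members were chosen with earlier results of these data known. These ranks, shares and medians therefore describe the members and do not test whether the group stands out. The treatments share the same saline pools.

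**Figure D1:**
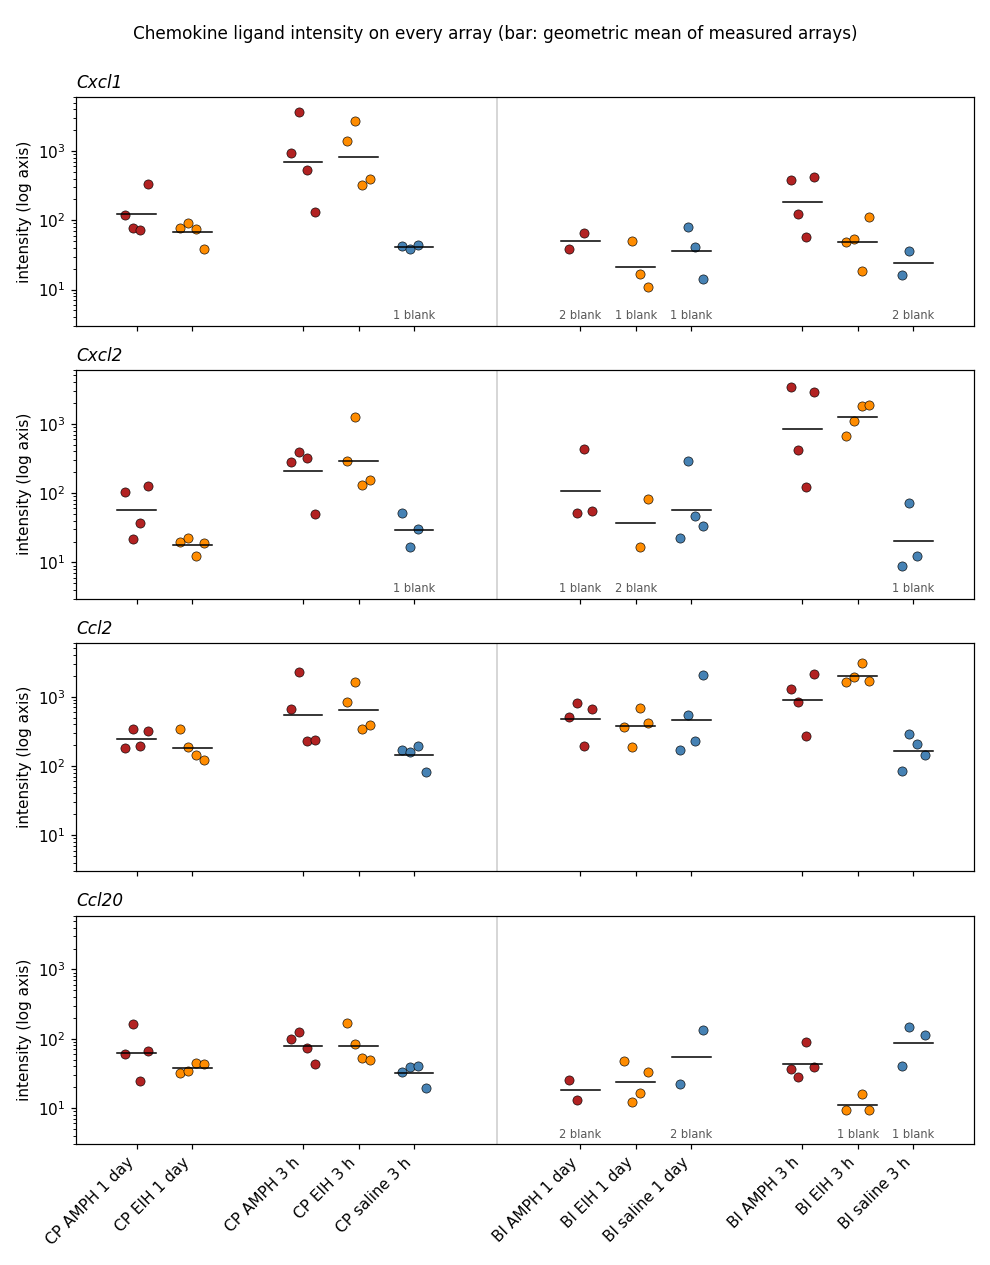
Intensity on a log axis of each ligand on every array, by tissue (CP, choroid plexus; Bl, blood), treatment and time. Points are arrays, black bars are geometric means of the measured arrays, and blank cells are counted under the points. In choroid plexus at 3 h the AMPH pools of Cxcl1 sit between 130.0 and 3642 and its EIH pools between 318 and 2708, above the saline pools at 38.2 to 43.3.

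The AMPH and EIH pools carrying a recurring rat number were also the highest of their groups for Cxcl1, Cxcl2 and Ccl2, and the saline pool carrying one was the lowest of its group for Ccl2 and Ccl20 and blank for Cxcl1 and Cxcl2. Without those pools, the Cxcl1 difference was 3.29 after AMPH (adjusted p = 0.212) and 3.76 after EIH (adjusted p = 0.318), and Cxcl2 stood at 2.48 (adjusted p = 0.222) and 2.61 (adjusted p = 0.337). Ccl2 stood at 0.95 after AMPH (adjusted p = 0.338) and 1.48 after EIH (adjusted p = 0.338). Ccl20 stood at 0.85 (adjusted p = 0.444) and 0.99 (adjusted p = 0.494). All these differences stayed positive.

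Single pools decided whether Cxcl1 and Cxcl2 passed the threshold. Without AMPH replicate 4 the AMPH difference was 4.89 for Cxcl1 (adjusted p = 0.00899) and 3.49 for Cxcl2 (adjusted p = 0.0240). Without EIH replicate 3 the EIH difference of Cxcl1 was 4.79 (adjusted p = 0.0257). Leaving out AMPH 1 day replicate 2, which is in neither comparison but enters the shared estimate of spread, gave Cxcl1 an adjusted p of 0.0347 after AMPH and 0.0362 after EIH with the same differences. That fit was added after the data were seen.

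**Figure D2:**
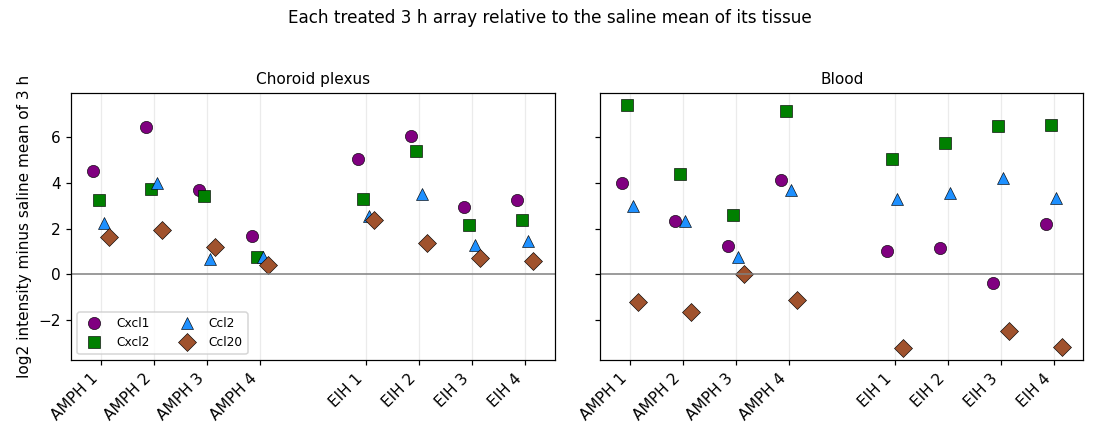
Log2 intensity of each ligand on every treated array of 3 h, minus the saline mean of the same tissue and gene; the numbers on the horizontal axis are replicates. In choroid plexus the AMPH replicate 4 values sit near the bottom of their group for all 4 ligands, and the replicate 2 pools of each treatment are the highest for Cxcl1, Cxcl2 and Ccl2. In blood Ccl20 lies below the saline mean on every measured array except AMPH replicate 3 (0.02 above it), while Cxcl2 lies above it on all 8.

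AMPH and EIH were not told apart by any member in choroid plexus at 3 h. The AMPH minus EIH difference was -0.25 ± 0.84 for Cxcl1 (95% interval -2.03 to 1.54), -0.51 ± 0.76 for Cxcl2 (-2.12 to 1.11), -0.28 ± 0.64 for Ccl2 (-1.63 to 1.07) and 0.04 ± 0.49 for Ccl20 (-0.99 to 1.07). None was called in limma (0.00973% of genes), and none passed an unadjusted p under 0.05. Without the pools of recurring rat numbers the differences were -0.47, -0.13, -0.53 and -0.14 in the same order, none of them called. The intervals leave room for differences of about 2-fold or more in either direction for each of the 4 genes.

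At 1 day the 4 ligands were measured in the AMPH pools and in the pools labelled EIH by treatment. Cxcl1 measured 120, 76.6, 71.7 and 331 in the AMPH pools and 78.5, 92.3, 76.0 and 38.1 in the EIH pools. Cxcl2 measured 102, 21.9, 36.8 and 126 after AMPH and 19.4, 22.2, 12.3 and 18.8 after EIH. For both genes the EIH pools of 1 day lay wholly below the EIH pools of 3 h, while the AMPH pools overlapped between times.

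Ccl2 measured 181, 339, 193 and 315 in the AMPH pools of 1 day and 347, 187, 144 and 122 in the EIH pools. Ccl20 measured 59.5, 161, 24.2 and 66.9 after AMPH and 32.2, 34.0, 44.2 and 43.5 after EIH. The value of 161 is from AMPH replicate 2, the pool that stood apart by its cell markers, and the part of those markers in it was not tested. The sum of 6 stroma markers also spread widely at 1 day, with 11530.2 to 134099 in AMPH and 13231 to 81648 in EIH pools, against 10798 to 18535 over the pools of 3 h, and its part was not tested either. The neutrophil marker sum was 591 to 5195 in AMPH and 415 to 652 in EIH pools of 1 day. The monocyte and macrophage marker sum was 2447 to 12379 and 2826 to 4305 in the same order. The part of these sums was not tested.

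The 1 day minus 3 h difference after EIH was -3.61 ± 0.84 for Cxcl1 (adjusted p = 0.120), -4.04 ± 0.76 for Cxcl2 (adjusted p = 0.105), -1.83 ± 0.64 for Ccl2 (adjusted p = 0.219) and -1.02 ± 0.49 for Ccl20 (adjusted p = 0.366). The median over all genes was 0.17 in this comparison, in which time and scaling cannot be told apart. In limma 0 of 10278 genes were called (0% of genes), with 1156 higher and 270 lower at an unadjusted p under 0.05. Of the members, 3 were lower unadjusted (2.63% of genes), and 3, namely Cxcl1, Cxcl2 and Ccl20, had every pool of 1 day below every pool of 3 h (4.03% of genes). Without EIH 3 h replicate 3, Cxcl2 stood at -4.42 (adjusted p = 0.0475). Without AMPH 1 day replicate 2 the adjusted p was 0.0489 for Cxcl1 and 0.0305 for Cxcl2. A fit without pools of recurring rat numbers could not be made, because 1 EIH pool of 1 day was left.

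After AMPH the 1 day minus 3 h difference was -2.52 ± 0.84 for Cxcl1 (adjusted p = 0.250), -1.85 ± 0.76 for Cxcl2 (adjusted p = 0.301), -1.12 ± 0.64 for Ccl2 (adjusted p = 0.416) and -0.34 ± 0.49 for Ccl20 (adjusted p = 0.772). None was called (0.00981% of genes) and 2 were lower unadjusted (3.81% of genes). Without the pools of recurring rat numbers these 4 differences were -1.50, -1.08, -0.58 and -0.57. Set against saline at 3 h, the choroid plexus AMPH pools of 1 day differed by 1.57, 0.94, 0.80 and 0.97 for Cxcl1, Cxcl2, Ccl2 and Ccl20. The EIH pools of 1 day differed by 0.72, -0.73, 0.37 and 0.25 in the same order (n = 4 and 3 for Cxcl1 and Cxcl2 in each). None of these was called (0.0294% of genes after AMPH and 0% after EIH) or passed unadjusted. Cxcl1 in the AMPH pools of 1 day lay above every measured saline pool (6.93% of genes). Between the treatments at 1 day, AMPH minus EIH was 0.85, 1.68, 0.43 and 0.72 for the 4 genes in that order, with none called (0% of genes) and Cxcl2 higher unadjusted (1.99% of genes).

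In blood at 3 h, Cxcl2 and Ccl2 rose after each exposure, and Ccl20 fell after EIH. Cxcl2 had intensities of 3440.5, 426, 122 and 2898 in the AMPH samples, 675, 1089, 1793 and 1857 in the EIH samples, and 9.0, 71.8 and 12.5 with 1 blank in the saline samples. Every treated sample lay above every saline sample, with AMPH replicate 3 nearest to saline. Cxcl2 rose by 5.40 ± 1.20 after AMPH (adjusted p = 0.0115) and by 5.96 ± 1.20 after EIH (adjusted p = 0.00352; n = 4 and 3 in each). These are 42.4-fold (95% interval 7.29 to 246) and 62.4-fold (10.7 to 363) differences. The saline intensities are low and are each held by 147 to 268 genes of the same array, and with intensities below the 10th percentile of each array raised to it, a setting added after the data were seen, the rises were 4.83 and 5.39.

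Ccl2 measured 1290.1, 826, 273 and 2121 in the AMPH samples, 1638, 1935, 3069 and 1669.8 in the EIH samples, and 84.1, 291, 205 and 144 in the saline samples. The EIH samples were far above saline, while AMPH replicate 3 lay within the saline range. Ccl2 rose by 2.43 ± 0.70 after AMPH (adjusted p = 0.0332), 5.40-fold, and by 3.61 ± 0.70 after EIH (adjusted p = 0.00158), 12.2-fold.

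Cxcl1 measured 384, 122, 57.6 and 428 in the AMPH samples, 48.8, 54.3, 18.4 and 110.1 in the EIH samples, and 16.2 and 36.0 with 2 blanks in the saline samples. The AMPH samples lay above both measured saline samples, and the EIH samples overlapped them. The difference was 2.93 ± 0.93 after AMPH (adjusted p = 0.0690) and 0.99 ± 0.93 after EIH (adjusted p = 0.566; n = 4 and 2 in each).

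Ccl20 went the other way, with 37.0, 28.1, 88.4 and 39.5 in the AMPH samples, 9.2, 15.7 and 9.4 with 1 blank in the EIH samples, and 40.2, 147 and 112 with 1 blank in the saline samples. The EIH samples lay below all saline samples, and the AMPH samples overlapped them. Ccl20 fell by 2.97 ± 0.70 after EIH (adjusted p = 0.0124; n = 3 and 3), and the AMPH difference was -0.99 ± 0.66 (adjusted p = 0.422; n = 4 and 3). The EIH intensities were at the lowest end of their arrays. With low values raised to the 10th percentile of the array, the Ccl20 difference after EIH was -1.52 (adjusted p = 0.0826), and without saline replicate 2 it was -2.59 (adjusted p = 0.0510).

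Of the 4 members in blood, 2 were called higher after AMPH (8.68% of genes were called in either direction), and 2 higher and 1 lower after EIH (12.6% of genes). Cxcl1 and Cxcl2 had every AMPH sample above saline (11.2% of genes), Cxcl2 and Ccl2 every EIH sample above it (12.1%) and Ccl20 every EIH sample below it (13%). The AMPH calls depended on single samples. Without saline replicate 1, Cxcl2 stood at 4.83 (adjusted p = 0.0559) and Ccl2 at 2.11 (adjusted p = 0.111). The call of Ccl2 was also lost without saline replicate 3 (2.54, adjusted p = 0.0582), saline replicate 4 (2.37, 0.0695), AMPH replicate 1 (2.25, 0.0793), AMPH replicate 2 (2.47, 0.0680) and AMPH replicate 4 (2.01, 0.122). Without AMPH replicate 3 the Cxcl1 difference was 3.49 (adjusted p = 0.0272). With only the compared groups fitted, Cxcl2 stood at 5.40 (adjusted p = 0.0621) and Ccl2 at 2.43 (adjusted p = 0.0665).

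**Figure D3:**
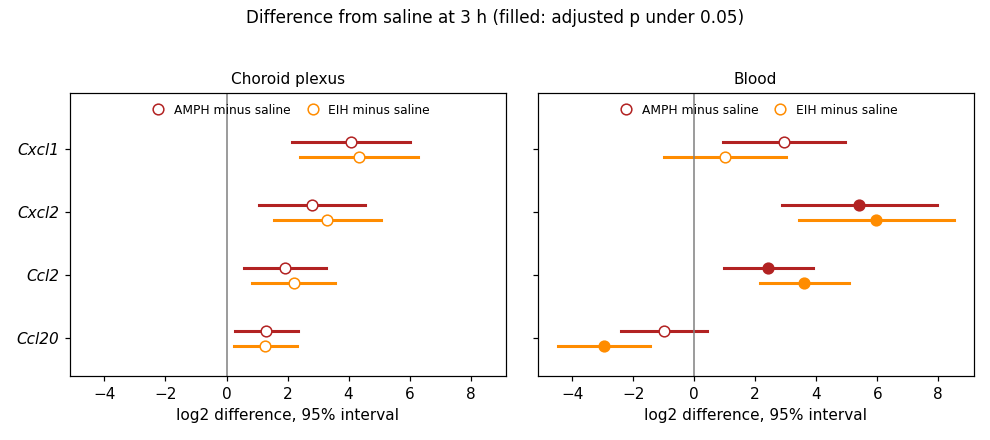
Log2 difference from saline at 3 h in choroid plexus and in blood for each ligand; lines are 95% intervals, and filled points passed an adjusted p of 0.05. Cxcl1 has its largest values in choroid plexus (4.09 and 4.33), Cxcl2 in blood (5.40 and 5.96), and Ccl20 lies above 0 in choroid plexus and below 0 in blood.

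AMPH minus EIH in blood was 1.94 ± 0.76 for Cxcl1 (adjusted p = 0.427), -0.56 ± 1.11 for Cxcl2 (adjusted p = 0.934), -1.18 ± 0.70 for Ccl2 (adjusted p = 0.649) and 1.97 ± 0.66 for Ccl20 (adjusted p = 0.329; n = 4 and 3). None was called in limma (0.0397% of genes), and Cxcl1 and Ccl20 passed an unadjusted p under 0.05 as higher (5.15% of genes). Every AMPH sample of Ccl20 lay above every measured EIH sample (3.47% of genes).

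The fall of T cell markers and the rise of neutrophil markers accompanied the blood results. All 5 T cell markers fell after each exposure, with a sum of 5743 to 12614 in AMPH, 4369 to 11977 in EIH and 19241 to 24250 in saline samples. Of 8 neutrophil markers, 4 rose after AMPH and 4 after EIH, with a sum of 75404 to 129182 in AMPH, 57049 to 95346 in EIH and 23826 to 37112 in saline samples. Of all genes in blood at 3 h, 5.08% were called higher and 3.6% lower after AMPH, and 5.63% and 7% after EIH. The monocyte and macrophage sum was 22662 to 29905 in AMPH, 17506 to 36683 in EIH and 11864 to 15504 in saline samples. The part of these cell shifts in the ligand values was not tested. In choroid plexus the neutrophil sum was 694 to 1249 in AMPH, 603 to 879 in EIH and 383 to 694 in saline pools, with none of the 8 markers called, and T cell sums were at most 295 at 3 h. The sum of 7 endothelium markers was 4562 to 5577 in AMPH, 5797 to 8890.1 in EIH and 6152 to 8256 in saline pools, with 0 of 7 called, and its part in the ligand values was not tested.

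At 1 day the blood samples overlapped between groups for all 4 members. Ccl2 measured 512, 811, 191 and 655 in the AMPH samples, 363, 190.2, 697 and 415 in the EIH samples, and 172, 544, 229 and 2024 in the saline samples. The highest value belonged to a saline sample, replicate 4. Cxcl2 measured 52.3, 430.3 and 54.6 with 1 blank in the AMPH samples, 16.5 and 81.2 with 2 blanks in the EIH samples, and 22.4, 290.1, 46.7 and 33.4 in the saline samples.

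Cxcl1 and Ccl20 were blank on many blood arrays of 1 day. Cxcl1 measured 38.3 and 66.2 in the AMPH samples, 50.2, 16.5 and 10.9 in the EIH samples and 79.9, 40.9 and 14.0 in the saline samples. Ccl20 measured 25.2 and 13.1 in the AMPH samples, 47.8, 12.1, 16.5 and 32.7 in the EIH samples and 22.4 and 134 in the saline samples. In EIH replicate 3, Cxcl1, Cxcl2 and Ccl20 all stood at 16.5, a value shared with 393 genes of that array, so these values have no order.

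No member was called in blood at 1 day in limma, where 2.08% of genes were called after AMPH, 0.082% after EIH and 0% between AMPH and EIH, and none passed an unadjusted p under 0.05. AMPH differed from saline by 0.49 for Cxcl1 (n = 2 and 3), 0.92 for Cxcl2 (n = 3 and 4), 0.07 for Ccl2 and -1.59 for Ccl20 (n = 2 and 2). EIH differed from saline by -0.78 (n = 3 and 3), -0.62 (n = 2 and 4), -0.28 and -1.21 (n = 4 and 2) in the same order.

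Set side by side at 3 h, the ligand with the largest difference from saline was Cxcl1 in choroid plexus and Cxcl2 in blood. The ligands were not tested against each other. The difference between tissues in the treatment effect, given below, was called for neither of these genes. Choroid plexus minus blood was tested within each treatment. Under EIH the Cxcl1 intensity of choroid plexus exceeded that of blood by 4.10 ± 0.83 (adjusted p = 8.8e-05), 17.2-fold. That of Ccl20 did so by 2.80 ± 0.60, 6.95-fold (adjusted p = 0.000191; n = 4 and 3). The blood EIH values of Cxcl1 lay at percentiles 8.3 to 41.8 of their arrays, each held by 162 to 265 genes. The blood EIH values of Ccl20 were at the lowest end of their arrays, and with low values raised to the 10th percentile of the array the Ccl20 difference was 1.85 (adjusted p = 0.00308). Ccl2 was lower in choroid plexus by 1.62 on the log2 scale (-1.62 ± 0.68, adjusted p = 0.0407), and Cxcl2 stood at -2.10 ± 0.98 (adjusted p = 0.0655). The 3 calls are of 4 members where 58.5% of all genes were called, so the count is near that of genes at large.

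For Cxcl1 and Ccl20 the EIH pools did not overlap the EIH blood samples (33.1% of genes lay wholly higher). The Ccl2 call was lost without choroid plexus EIH replicate 3 (-1.31, adjusted p = 0.131) or replicate 4 (-1.37, 0.116), and without blood EIH replicate 2 (-1.64, 0.0604), replicate 3 (-1.42, 0.102) or replicate 4 (-1.71, 0.0502). Without choroid plexus EIH replicate 2, the pool with a recurring rat number, Cxcl2 stood at -2.79 (adjusted p = 0.0202).

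Under AMPH the Cxcl1 difference was 1.92 ± 0.83 (adjusted p = 0.0485), with 57.7% of genes called. This call was lost without choroid plexus AMPH replicate 1 (1.78, adjusted p = 0.100), replicate 2 (1.12, 0.258) or replicate 3 (2.05, 0.0570), and without blood AMPH replicate 2 (1.72, 0.109) or replicate 3 (1.36, 0.189). Cxcl2 stood at -2.05 ± 0.98 (adjusted p = 0.0737), Ccl2 at -0.72 ± 0.68 (0.387) and Ccl20 at 0.86 ± 0.56 (0.197). Without blood AMPH replicate 3, Cxcl2 stood at -2.98 (adjusted p = 0.00972).

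In saline, only Ccl20 was called, lower in choroid plexus (-1.44 ± 0.60, adjusted p = 0.0456; n = 4 and 3), where 53.5% of genes were called. The call was lost without choroid plexus saline replicate 1 (-1.45, adjusted p = 0.0662), replicate 2 (-1.54, 0.0510) or replicate 4 (-1.20, 0.123), and without blood saline replicate 2 (-1.06, 0.201) or replicate 4 (-1.26, 0.135). It was also lost with shared rat numbers as a random replicate block (-1.38, adjusted p = 0.0524), without the pools of recurring rat numbers (-1.20, 0.138) and with low values raised to the 10th percentile of the array (-0.92, 0.157). Cxcl1 differed by 0.77 ± 1.07 (n = 3 and 2), Cxcl2 by 0.56 ± 1.13 (n = 3 and 3) and Ccl2 by -0.20 ± 0.68 between choroid plexus and blood under saline, none of them called.

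At 1 day the tissues were compared within AMPH and EIH. Under AMPH the difference in Ccl20 was 1.79 ± 0.68 (n = 4 and 2, adjusted p = 0.0289), with 52% of genes called, and no member was called without choroid plexus AMPH replicate 2. Without blood AMPH replicate 1 or 2 a single blood value of Ccl20 was left, and Ccl20 was not tested. In EIH none of the 4 members was called (52.1% of genes), and none passed an unadjusted p under 0.05, with Cxcl1 at 1.70 ± 0.89 (n = 4 and 3, adjusted p = 0.115).

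The difference between tissues in the treatment effect itself was tested with an interaction term. For Ccl20 the 3 h EIH effect was higher in choroid plexus than in blood by 4.23 ± 0.85 (adjusted p = 0.00257), the only member called, where 6.13% of genes were called. The difference remained called at 2.76 (adjusted p = 0.0230) with low values raised to the 10th percentile, at 3.96 (adjusted p = 0.0203) without pools of recurring rat numbers and at 4.20 (adjusted p = 0.00199) with shared rat numbers as a random replicate block. Cxcl1 stood at 3.34 ± 1.35 (adjusted p = 0.148), Cxcl2 at -2.66 ± 1.49 (0.332) and Ccl2 at -1.42 ± 0.97 (0.440). Blanks left 3 values of Ccl20 in blood EIH and 3 in blood saline. In saline they left 3 choroid plexus and 2 blood values of Cxcl1, and 3 of each for Cxcl2. For AMPH no member was called (3.15% of genes), with Ccl20 at 2.30 ± 0.82 (adjusted p = 0.121), the member that passed unadjusted as higher (8.88% of genes), Cxcl1 at 1.15, Cxcl2 at -2.60 and Ccl2 at -0.52.

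**Figure D4:**
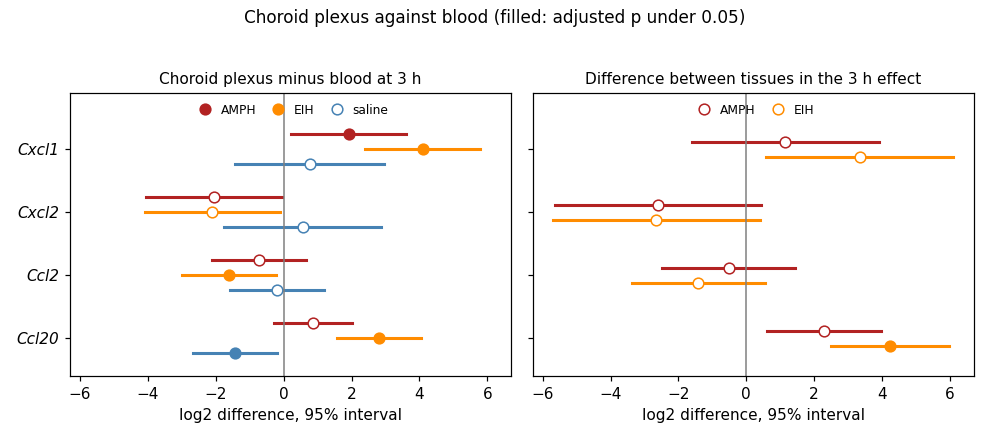
Left, choroid plexus minus blood at 3 h for each ligand under AMPH, EIH and saline; right, the difference between the tissues in the effect of AMPH and of EIH relative to saline. Lines are 95% intervals and filled points passed an adjusted p of 0.05; the Ccl20 effect of EIH differed by 4.23 between tissues.

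The order of levels in the 6 groups of 3 h differed by gene. For Cxcl1 the geometric means ran 826 (choroid plexus EIH), 697 (choroid plexus AMPH), 184 (blood AMPH), 48.1 (blood EIH), 41.1 (choroid plexus saline) and 24.1 (blood saline). Of these neighbours, blood AMPH and blood EIH differed by more than the larger of their SDs. For Cxcl2 the order was 1250.5 (blood EIH), 849 (blood AMPH), 292 (choroid plexus EIH), 205 (choroid plexus AMPH), 29.5 (choroid plexus saline) and 20.04 (blood saline), with a gap beyond the SDs between the fourth and the fifth.

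For Ccl2 the order was 2007 (blood EIH), 887 (blood AMPH), 652 (choroid plexus EIH), 538 (choroid plexus AMPH), 164 (blood saline) and 142 (choroid plexus saline), with the gap beyond the SDs again between treated and saline groups. For Ccl20 it was 87.0 (blood saline), 79.2 (choroid plexus AMPH), 77.2 (choroid plexus EIH), 43.7 (blood AMPH), 32.1 (choroid plexus saline) and 11.1 (blood EIH). Gaps beyond the SDs lay after choroid plexus EIH and after choroid plexus saline. In the groups of 1 day no neighbouring levels of any member differed by more than the larger SD.

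Of the receptors for these ligands, Cxcr2 rose in blood after EIH by 1.35 ± 0.31 (adjusted p = 0.0059) and stood at 0.98 ± 0.31 after AMPH (adjusted p = 0.0553). Ccr6, the receptor of Ccl20, fell in blood after EIH by 1.64 ± 0.36 (adjusted p = 0.0043) and stood at -0.50 ± 0.36 after AMPH. Ccr2, the receptor of Ccl2, stood at 1.12 after AMPH and 1.37 after EIH in blood. In choroid plexus none of these receptors was called, with differences after AMPH and EIH of 0.34 and -0.13 for Cxcr2, 0.41 and 0.86 for Ccr2, 0.94 and 0.08 for Ccr6, and -0.20 and 0.34 for Cxcr1. These differences rest on low intensities. In the choroid plexus pools of 3 h, Cxcr2 measured 7.0 to 78.3 and Ccr2 6.3 to 96.2. Ccr6 measured 9.0 to 65.5 and Cxcr1 7.0 to 45.9, both with blanks. Ackr1, a scavenging chemokine receptor of red cells and venules, was not analysed here.

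Other chemokine ligands were measured as lists. In choroid plexus 0 of 9 other CXC ligands tested and 0 of 17 other CC, C and CX3C ligands were called after either exposure, with list medians of 0.13 and -0.08 after AMPH and 0.36 and 0.05 after EIH. In blood 1 of 16 of the other CC, C and CX3C ligands was lower after AMPH (Ccl4), and 1 of 8 of the other CXC ligands was lower after EIH (Cxcl10), both named after their values were seen. Of the chemokine receptors tested in blood, 1 was higher and 1 lower of 15 after AMPH, and 3 were higher and 3 lower of 15 after EIH, where 8.68% of all genes were called in either direction after AMPH and 12.6% after EIH.

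The cytokines that induce these ligands are given as differences from saline, none of them called in choroid plexus. Il1b, the inflammasome cytokine, stood at 1.52 after AMPH and 1.55 after EIH, Il6 at 2.25 and 1.72, and Tnf at 0.60 and 0.34. The Il6 and Tnf differences rest on low intensities. Il6 measured 15.8 to 28.2 in the saline pools of 3 h. Tnf measured 13.9 to 25.6 in the saline, 17.9 to 42.5 in the AMPH and 21.6 to 24.9 in the EIH pools. In blood Il1b rose by 1.33 ± 0.26 after AMPH (adjusted p = 0.0042) and by 1.65 ± 0.26 after EIH (adjusted p = 0.0003), while Il6 stood at 0.36 and 0.35 and Tnf at 0.48 and 0.81. Of 8 inducing cytokines tested, 0 were called in choroid plexus after either exposure and 1 in blood after each. In blood 8.68% of all genes were called after AMPH and 12.6% after EIH.

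Among 18 NF-kappa-B feedback and target genes in choroid plexus, 0 were called after AMPH and 1 after EIH, with medians of 0.70 and 0.83. Of all genes, 0.156% were called after AMPH and 0.341% after EIH. The gene called was Cebpd, a transcription factor of acute phase responses, which rose by 3.10 ± 0.62 after EIH (adjusted p = 0.0376) and stood at 3.14 after AMPH (adjusted p = 0.0524). Cd14, the lipopolysaccharide co-receptor counted in the monocyte list, rose by 1.10 ± 0.22 after EIH (adjusted p = 0.0376). The monocyte and macrophage sum as a whole overlapped between the choroid plexus groups of 3 h. It was 2000 to 2700 in AMPH, 2422 to 3418 in EIH and 2529 to 2984 in saline pools. In blood 7 of 17 target genes rose after AMPH (5.08% of all genes were called higher) and 6 after EIH (5.63% of all genes). The list of genes that affect chemokine mRNA life or restrain kinases had 0 of 9 called in choroid plexus after either exposure, and 2 higher after AMPH and 4 after EIH in blood. Zfp36, which destabilizes mRNAs with AU-rich elements, rose in blood by 3.54 ± 0.58 after AMPH and 3.27 ± 0.58 after EIH and was named after its values were seen.

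The genes most like each ligand over the choroid plexus arrays were found by Pearson correlation of log2 intensity, which reflects shared groups, times and scaling sets as well as within-group variation. For Cxcl1 they were Ahsa2 (r = 0.951), Rgs2 (0.941) and Crem (0.939) over 19 arrays, and for Cxcl2 they were Cebpb (0.928), Ahsa2 (0.919) and Manf (0.910) over 19 arrays. For Ccl2 they were Ccl7 (0.931), Junb (0.884) and Ccn1 (0.877) over 20 arrays, and for Ccl20 they were Plscr1 (0.904), Btg1 (0.868) and Il1b (0.865) over 20 arrays. Among the members, Cxcl1 followed Cxcl2 (0.919) and Ccl2 (0.907) over 19 arrays, and Ccl20 was less alike to Cxcl1 (0.685), Cxcl2 (0.580) and Ccl2 (0.725).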

How the data were processed

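The labels' protocols name Tri Reagent for RNA and Agilent's Quick Amp kit with Cy3. The authors deposited linear intensity values for 14055 probes on 44 arrays, with 0 columns from outside the series. For scanner software, background correction, normalization and blank cells, the sources used here give nothing. Blanks made up 3.05% of choroid plexus and 8.57% of blood values. The 75th percentiles were 577 to 582 at 3 h and 618 to 634 at 1 day.

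From the deposited intensity, log2 was taken with blanks kept missing. Of the probes, 12926 had 1 gene symbol, 0 several and 1129 none; the probe with the highest mean stood for each of the 10412 genes, and 2210 genes had several. Group means were fitted with limma 3.58.1 (R 4.3.3), per tissue or over all 44 arrays for comparisons of tissues, with empirical Bayes and at least 2 values a group. The steps were tested on simulated data. Promoters were read from RefSeq, GRCr8. Tables and figures used Python 3.11.15, pandas 2.3.3 and matplotlib 3.10.9.

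Members and gene lists were chosen with earlier results of these data known. Named genes are the members, the list genes called in a choroid plexus 3 h comparison with saline, the receptors Cxcr1, Cxcr2, Ccr2, Ccr6 and Ackr1, the inducers Il1b, Tnf and Il6, and the 3 genes most correlated with each member in choroid plexus (at least 16 arrays). Replicate numbers follow accession order and do not pair arrays. A p-value reflects only how these pools and samples vary, and precision is limited by how many arrays there are. Alternatives were other normalizations, filters, spreads, weights, blank rules and left-out arrays.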

Additional observations from a re-analysis of the deposited data

Results flagged for a closer look

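Cxcl2 in choroid plexus AMPH pool replicate 4 at 3 h, at an intensity of 49.3, lay far below the other 3 pools of its group (280.3, 399 and 322). It was the only one found among 31 groups with 4 values. By chance about 1 in 20 such groups passes the cut-off, so 1 flag among 31 groups is no more than chance gives. The same pool was lowest of its group for Cxcl1 (130.0) and Ccl20 (43.2).

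Ccl20 differed between tissues in its EIH effect at 3 h: the log2 difference from saline was 1.26 in choroid plexus and -2.97 in blood, and the tested difference between these effects was 4.23 ± 0.85 (adjusted p = 0.00257). With low values raised to the 10th percentile of the array, the blood difference was -1.52 (adjusted p = 0.0826) and the difference between the effects was 2.76 (adjusted p = 0.0230).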

How the results depend on the processing

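No paired analysis was made, and the main fits treated all arrays as independent. Replicate numbers follow the order of the arrays and not the labels. The rat numbers in the titles tie some blood arrays to pools, in places several blood arrays to the same pool. These shared numbers as a random replicate block in the comparisons of tissues gave 0 called members under saline and kept Ccl20 called in the EIH interaction. Over all settings, the count of called members stayed within 1.5 times of its reported value in 348 of the recomputed comparisons and moved in 54. Of the members' own values, 919 kept direction and side of the threshold, 37 passed it newly, 36 no longer passed it and 22 changed sign, all of the last without a call. Leaving out AMPH 1 day replicate 2 and raising low values to the 10th percentile of the array were chosen after seeing the data. The cause was not tested for any of the changes below.

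For EIH minus saline in choroid plexus at 3 h, where 0 members were called, array weights gave 3, blanks at the 5th percentile of the array gave 2, and leaving out the lowest 25% of genes, an intensity trend with robust spread, or the 10th percentile floor gave 1. Leaving out single arrays gave 0 to 1. For AMPH minus saline array weights gave 4 and single arrays left out gave 0 to 2. For EIH 1 day minus 3 h the same median on every array gave 2, array weights 3 and the compared groups alone 2, with 0 to 2 when single arrays were left out. In blood the AMPH count of 2 was 0 with the compared groups alone and 0 to 3 with single arrays left out, and the EIH count of 3 was 2 to 3.

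Between tissues, the saline count of 1 was 0 with the same median, the lowest 25% left out, the trend, blanks at the 5th percentile, recurring pools left out, the block and the floor, and 0 to 1 with single arrays left out. The 3 h EIH count of 3 was 2 to 4 with single arrays left out. The 3 h AMPH count of 1 was 0 with quantile normalization, the compared groups alone or recurring pools left out, and 0 to 1 with single arrays left out. At 1 day the EIH count of 0 was 2 with array weights and 1 with the compared groups alone. The AMPH count of 1 was 0 with the lowest 25% left out, array weights, the compared groups alone or recurring pools left out, 2 with blanks at the 5th percentile or the floor, and 0 to 1 with single arrays left out, where Ccl20 was not tested without blood AMPH replicate 1 or 2. The EIH interaction count of 1 was 0 with the lowest 25% of genes left out and 2 with the floor. With the lowest 25% of genes left out Ccl20 was not tested, so the counts of 0 for saline, AMPH at 1 day and the interaction under that setting are not lost calls. The interaction count stayed at 1 in all 16 fits with a single array left out.

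Signs changed only for values with no call. AMPH minus EIH in choroid plexus at 3 h was 0.20 for Cxcl1 and 0.0092 for Ccl2 with array weights, and -0.14 for Ccl20 without recurring pools. With single arrays left out it was -1.04 to 0.56 for Cxcl1, -0.89 to 0.19 for Cxcl2, -0.98 to 0.17 for Ccl2 and -0.19 to 0.41 for Ccl20. Ccl20 in AMPH 1 day minus 3 h was -0.79 to 0.12, and Cxcl2 in blood AMPH minus EIH was -1.23 to 0.37. Choroid plexus minus blood under saline was -0.073 with the floor and -0.021 to 1.48 with single arrays left out for Cxcl2. For Ccl2 it was 0.069 without recurring pools and -0.53 to 0.071 with single arrays left out. Low intensities shared by many genes limit what Cxcl1, Cxcl2 and Ccl20 can show in blood, where 6, 4 and 6 of 24 arrays were blank.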

Other observations

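Genes found alike to a ligand in choroid plexus did not all follow it in blood. Plscr1, a phospholipid scramblase, rose in blood by 3.24 after AMPH and 3.13 after EIH, where Ccl20 stood at -0.99 and fell by 2.97. Btg1, an antiproliferative gene, stood at -0.46 after AMPH and fell by 0.72 after EIH in blood. Crem and Junb rose in blood after each exposure, by 2.17 and 1.85 after AMPH and by 2.80 and 2.68 after EIH.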
